A study of Mus musculus with 9 samples.

Results

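The injured left ventricle was compared here between the ischemic zone (IZ) and the border zone (BZ) that surrounds it. The members are the genes whose 3 IZ arrays all lay above, or all lay below, the 3 BZ arrays, among genes with a mean log2 level of 6 or more over the 9 arrays of the series. There were 623 such genes, 416 higher and 207 lower in IZ, of 12189 genes at that level and 30087 genes measured in all. As the rule reads the same difference that it describes, the values of these genes are a description and carry no test.

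IZ and BZ came from the left ventricles of 3 male mice aged 8 weeks, of the strain C57BL/6J (C57BL/6 in a second label), given 45 min of ligation of the left anterior descending coronary artery and 24 h of reperfusion, and gave 3 arrays each. The remote, non-ischemic zone (NIZ) of the same 3 hearts gave the other 3 of the 9 arrays and is used as a landmark. No sham-operated or drug-treated heart and no engineered allele was among these groups, so every array shares the ligation and the reperfusion. Each array measured 100 ng of total RNA from pieces of tissue that hold every cell type of the zone. Zone borders were set by dissection, and the sources used here do not state how the pieces were delimited or which number belongs to which mouse.

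After a coronary artery is reopened, the ischemic zone holds dying myocytes and incoming leukocytes, whereas the border zone holds mostly living myocytes under stretch. Adult cardiac muscle lives largely on fatty acids burned in mitochondria, whose own genome encodes core subunits of the respiratory chain. Low oxygen stabilises hypoxia-inducible factors, which raise glycolytic enzymes, the vasodilator peptide adrenomedullin and the prolyl hydroxylases that in turn mark the factors for decay.

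Over all 65534 transcript clusters (the array's units for a gene or transcript), limma called 0 between IZ and BZ after Benjamini-Hochberg adjustment (smallest adjusted p = 0.943), which is 0% of the clusters. The methods' test, a one-way analysis over the 3 zones with Bonferroni-corrected pairs, called 447 clusters without adjustment over clusters (138 higher and 309 lower in IZ) and 0 with it. In limma, 2517 clusters had an unadjusted p under 0.05. The count of 416 genes higher in IZ is 3.41% of the genes at the level floor, and the 207 lower are 1.70%. With the median of each array brought to a common value, the split was 942 higher and 82 lower, so the balance of the directions rests on the scaling. Array medians on the log2 scale ran from 4.19 to 4.22 in IZ and from 4.19 to 4.29 in BZ, with BZ replicate 3 the highest.

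The arrays read as heart. The log2 level of Tnnt2, the cardiac troponin T gene, was 13.81 to 13.85 in IZ and 13.76 to 13.83 in BZ, and that of the myosin gene Myh6 was 12.92 or more on all of these arrays. A label that reads brain was at odds with this: the neuronal genes Snap25 and Syt1 and the astrocyte gene Gfap had levels between 3.88 and 5.17 on the IZ and BZ arrays. In whole tissue, fewer cells of a type and less RNA per cell cannot be told apart, and this holds for each result below.

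Differences between the zones were small. Of the genes at the level floor, 99.6% had IZ and BZ means within 0.5 log2 of each other, and the median difference (IZ minus BZ, as throughout) was 0.01. Among the 416 higher genes the median log2 difference was 0.14, and 7 differed by 0.5 or more. Among the 207 lower genes the median was -0.10, and 3 differed by that much. The gap between the nearest IZ and BZ arrays had a median of 0.03 log2 in both directions, and it was 0.2 or more for Acta1 and 1700056E22Rik alone. The rule's edge is arbitrary in the same way: the last 3 genes inside the level floor were Hif3a (mean level 6.02), Zfp980 (6.02) and Gm12186 (6.01), and the first 3 outside it were Dgkh (6.00), Gm5313 (5.99) and Npw (5.99).

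**Figure D1:**
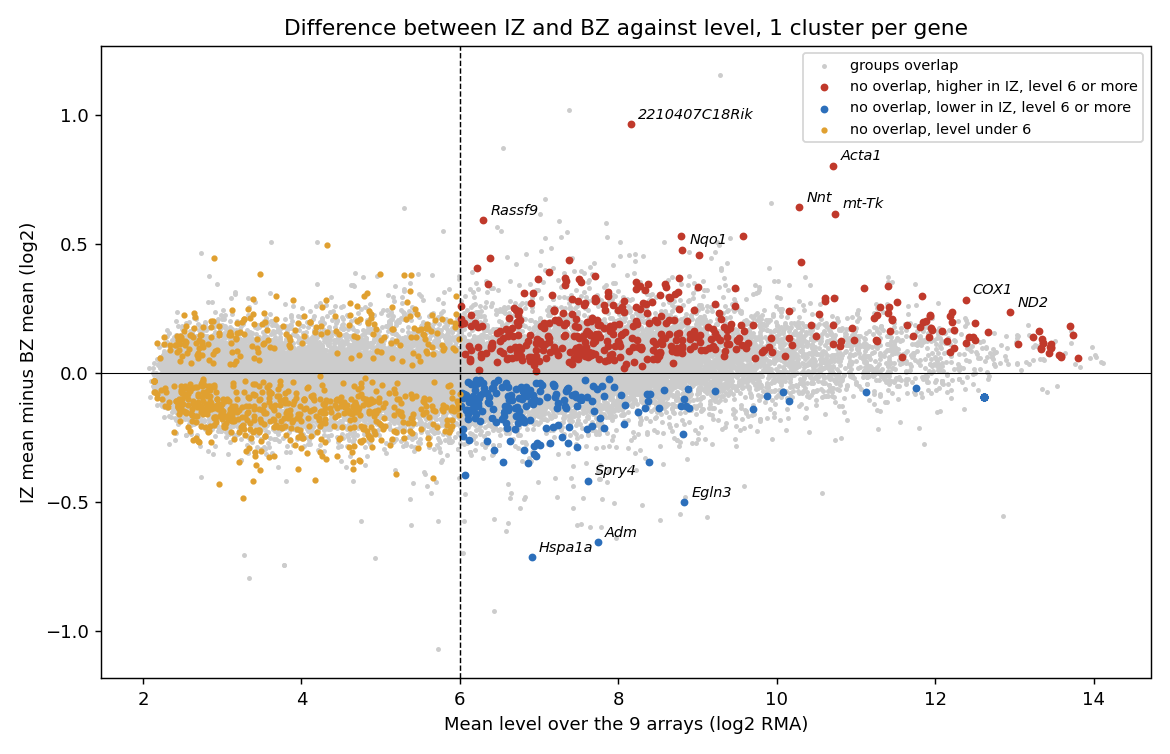
Difference of the zone means (IZ minus BZ, log2) against the mean level over the 9 arrays (log2 RMA) for 30087 genes, 1 point per gene. Red points (416 genes) and blue points (207 genes) had no overlap between the 3 IZ and 3 BZ arrays at a level of 6 or more, orange points had none at a lower level, and the dashed line marks the level of 6.

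A group of 6 microRNA genes were among the members, and their mature sequences are shown to identify the genes. RefSeq (GRCm38.p6) gave the sequences, printed 5′ to 3′ with the seed (bases 2 to 8) in capitals, and no seed was shared between them.
mmu-miR-3471, chr4:10845585-10845606, minus strand: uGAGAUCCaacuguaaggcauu
mmu-miR-574-5p, chr5:64970328-64970350, plus strand: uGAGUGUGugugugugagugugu
mmu-miR-574-3p, chr5:64970364-64970385, plus strand: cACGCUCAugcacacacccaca
mmu-miR-762, chr7:127708534-127708555, plus strand: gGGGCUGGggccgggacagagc
mmu-miR-667-5p, chr12:109720020-109720044, plus strand: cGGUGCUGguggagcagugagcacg
mmu-miR-667-3p, chr12:109720061-109720083, plus strand: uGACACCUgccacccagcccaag
mmu-miR-188-3p, chrX:7247992-7248012, minus strand: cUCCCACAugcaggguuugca
mmu-miR-188-5p, chrX:7248031-7248051, minus strand: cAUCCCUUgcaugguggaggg
mmu-miR-3472, chrX:145039390-145039414, plus strand: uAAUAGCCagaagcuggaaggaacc

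The array measures the RNA of each microRNA gene as a whole and does not tell the arms or the precursor apart. Mir762 had log2 levels of 6.90, 6.94 and 6.68 in IZ, 7.04, 7.25 and 7.19 in BZ, and 6.95, 6.89 and 6.78 in NIZ. BZ was thus above all 6 other arrays, with a log2 difference of -0.32 for IZ against BZ. Mir188, Mir667 and Mir574 were also lower in IZ, by log2 differences of -0.18, -0.13 and -0.13 (for Mir574 -0.08 without BZ replicate 3). Mir3472 had levels of 9.45, 9.45 and 9.86 in IZ and 9.34, 9.31 and 9.32 in BZ (difference 0.26, and 0.12 without IZ replicate 3), and Mir3471-1 differed by 0.19. Of 96 microRNA genes at the level floor, 2 were higher in IZ without overlap (2.08%) and 4 were lower (4.17%), beside 3.41% and 1.70% of all genes, so the counts lie near the background.

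Acta1 showed the widest gap between the zones. It encodes skeletal muscle actin, an isoform of the fetal heart that returns in stressed ventricles. Its log2 levels were 11.23, 10.99 and 10.71 in IZ, 10.35, 10.18 and 9.996 in BZ, and 11.08, 11.19 and 10.69 in NIZ. The lowest IZ array was 0.37 log2 above the highest BZ array, the difference of means was 0.80 (1.75-fold), and BZ lay below all 6 other arrays. With any single IZ or BZ array left out, or with quantile normalization, the difference lay between 0.68 and 0.94. The adult cardiac actin gene Actc1 had levels of 13.31, 13.26 and 13.37 in IZ and 13.28, 13.38 and 13.46 in BZ, which overlap.

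In the list of fetal and stress genes that holds Acta1, the directions were mixed. Of 21 measured, 8 were higher and 13 lower in IZ (median log2 difference -0.01), and Acta1 was the one without overlap. Without BZ replicate 1, 19 of the 21 were higher (median 0.33), and without BZ replicate 3, 2 were (median -0.38). Nppa, the gene of the atrial natriuretic peptide, had levels of 13.32, 12.35 and 11.72 in IZ against 13.52, 13.08 and 12.45 in BZ. The IZ arrays of Nppa spread more widely than the difference of the means (-0.55). The promoter window of Acta1 (250 bases before to 50 after the start, RefSeq, GRCm38.p6) is shown for its CArG box, given in capitals. This motif is read by serum response factor at muscle genes. The box was searched on both strands and is found in 1.63% of 32851 promoter windows. The share was 1.45% for genes at the level floor, 1.22% for the higher members and 1.14% for the lower members.
Acta1 promoter, chr8:123894726-123895025, minus strand: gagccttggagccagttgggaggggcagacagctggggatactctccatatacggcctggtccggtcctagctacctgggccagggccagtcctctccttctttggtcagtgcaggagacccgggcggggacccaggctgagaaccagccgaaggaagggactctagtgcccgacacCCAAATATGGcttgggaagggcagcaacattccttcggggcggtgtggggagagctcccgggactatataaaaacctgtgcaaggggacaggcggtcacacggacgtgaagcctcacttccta

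RNA of the mitochondrial genome had higher means in IZ than in BZ throughout. Its genes are copied as long transcripts from both strands and then cut into messenger, ribosomal and transfer RNAs, so their levels are not independent of each other. Of 7 genes with a cluster of their own, all 7 had a higher mean in IZ and 6 had no overlap, beside 3.41% of all genes at the level floor. COX1, a catalytic subunit of complex IV, had log2 levels of 12.38, 12.40 and 12.77 in IZ and 12.29, 12.17 and 12.22 in BZ (difference 0.28, 1.22-fold, and 0.16 without IZ replicate 3). ND2, a subunit of complex I, had 12.98, 12.97 and 13.11 in IZ and 12.88, 12.82 and 12.65 in BZ (difference 0.23). IZ replicate 3 was the highest array for both.

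The remaining members of the mitochondrial genome covered smaller and larger differences. COX2 differed by 0.21, the ribosomal RNA gene mt-Rnr1 by 0.18 and the complex I gene ND3 by 0.16 (0.11 without IZ replicate 3). The transfer RNA gene mt-Tk had the largest, with levels of 10.80, 10.54 and 11.14 in IZ and 10.36, 10.51 and 9.76 in BZ (difference 0.62), of which BZ replicate 3 was the lowest (0.39 without it). ND6, which lies on the other strand from most of these genes, had 11.21, 11.17 and 11.43 in IZ and 11.11, 11.26 and 11.14 in BZ, which overlap. For the NIZ arrays of COX1 the levels were 12.37, 12.37 and 12.46, above every BZ array.

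Clusters with several symbols or none extended the pattern. The array holds 30 clusters whose identifiers begin as those of the 7 mitochondrial genes do, and 29 of them passed the level floor. All 29 had a higher mean in IZ than in BZ, by 0.10 to 1.15 log2 (median 0.23), and 20 had no overlap. Without any single IZ or BZ array all 29 stayed higher in IZ, with medians from 0.16 (without IZ replicate 3) to 0.27. The mean deviation of these clusters from their 9-array means was 0.02, 0.00 and 0.33 in IZ, -0.20, -0.14 and -0.36 in BZ, and 0.11, 0.14 and 0.10 in NIZ. BZ was therefore the low zone, and IZ replicate 3 stood apart on the high side.

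**Figure D2:**
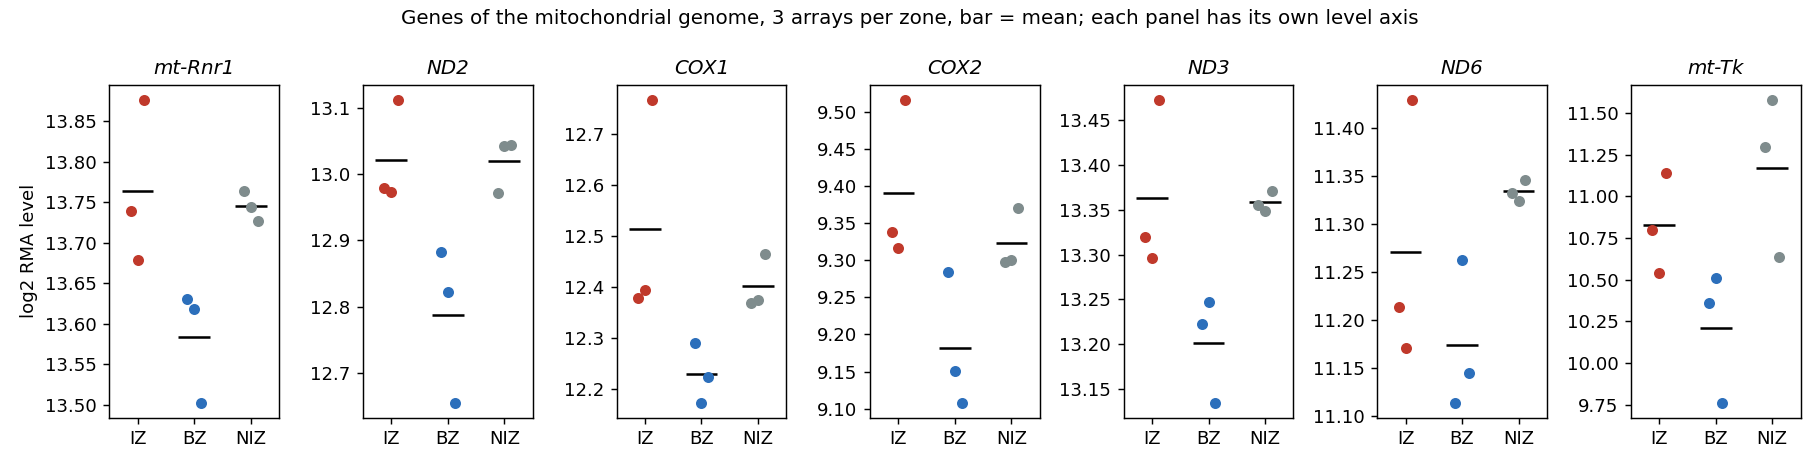
Log2 RMA levels of the 7 genes of the mitochondrial genome with a cluster of their own, on 3 arrays each of IZ (red), BZ (blue) and NIZ (grey), with the mean as a bar and a separate level axis for each gene. The IZ points lie above the BZ points in 6 of the 7 panels and overlap for ND6.

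Tfb2m and Nnt, a pair of single nuclear genes with mitochondrial products, were among the higher members. Tfb2m encodes a transcription factor that starts copying of the mitochondrial genome, and its log2 levels were 8.59, 8.70 and 8.85 in IZ and 8.22, 8.48 and 8.56 in BZ (difference 0.29, and 0.19 without BZ replicate 1). Nnt encodes the transhydrogenase that supplies mitochondria with NADPH, and C57BL/6J mice are known for a deletion in it. Its cluster had 10.43, 10.85 and 10.92 in IZ, 9.79, 10.41 and 10.06 in BZ, and 9.56, 9.90 and 10.61 in NIZ (IZ minus BZ 0.64, 1.56-fold). The nearest arrays, IZ replicate 1 and BZ replicate 2, were 0.02 apart. The BZ and NIZ means of Nnt were close (10.09 and 10.02), whereas the NIZ mean was close to that of IZ for most genes of the mitochondrial genome.

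Lists of nuclear genes of energy metabolism had higher means in IZ nearly throughout, but held no gene free of overlap. Outside these lists, Acsf2 and Crot, of fatty acid metabolism, were members higher in IZ (0.28 and 0.195). Coa3, of complex IV assembly, and Prkag2, of the AMP-activated kinase, were lower members (-0.14 and -0.13). Of 31 measured genes of fatty acid uptake and oxidation 30 were higher (median log2 difference 0.15), of 23 genes of the TCA cycle 23 (median 0.10), of 18 genes of branched-chain amino acid and ketone catabolism 17 (median 0.16) and of 38 genes of oxidative phosphorylation 33 (median 0.07). Over all genes at the level floor 55.2% were higher. Cpt2, a carnitine transferase of the inner mitochondrial membrane, and Bdh1, which interconverts the ketone bodies, had the largest differences of their lists, at 0.36 and 0.40. Named by their level, Fabp3, the heart fatty acid binding protein gene, differed by 0.10, Lpl, the lipoprotein lipase gene, by 0.19, Cs, the citrate synthase gene, by 0.09 and Oxct1, of ketone use, by 0.16.

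These counts depended on a single BZ array. Without BZ replicate 1, 15 of the 31 fatty acid genes were higher in IZ (median -0.00), 4 of the 23 TCA cycle genes (median -0.03), 11 of the 18 amino acid and ketone genes (median 0.01) and 9 of the 38 oxidative phosphorylation genes (median -0.06). Without IZ replicate 3 the medians were 0.06, 0.02, 0.07 and -0.00 in the same order of lists. The mean deviation of the fatty acid list was -0.14, 0.10 and 0.21 in IZ and -0.37, 0.12 and -0.02 in BZ, so BZ replicate 1 stood apart on the low side. On the same array the neutrophil list stood at 1.32, against 0.07 and -1.23 on the other BZ arrays and between -0.12 and 0.34 in IZ, and the cardiomyocyte list stood at -0.21. The part of these cells in the metabolic differences was not tested.

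**Figure D3:**
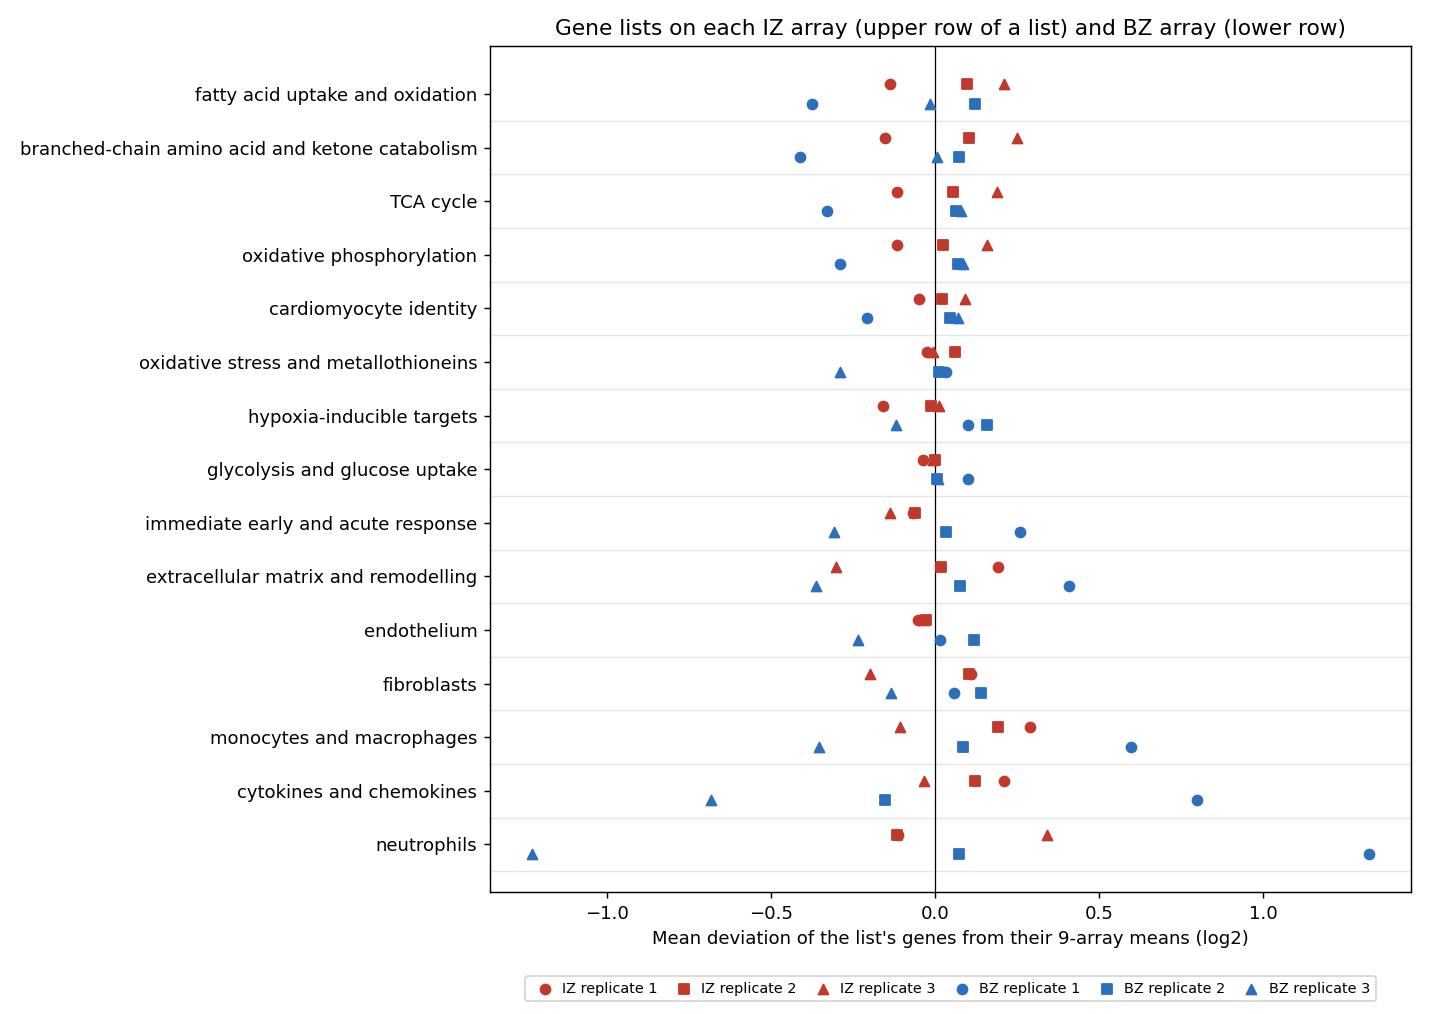
Mean deviation (log2) of the genes of 15 lists from their 9-array means, with IZ arrays in red above BZ arrays in blue and a marker shape for each replicate number. BZ replicates 1 and 3 lie at opposite ends for neutrophil genes (1.32 and -1.23), and BZ replicate 1 is the lowest array for the 4 lists of energy metabolism.

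Genes of defence against oxidants and electrophiles were higher in IZ in number. Of 23 measured, 19 had a higher mean in IZ (median log2 difference 0.08), and Nqo1, a quinone reductase induced through the factor Nrf2, was the member without overlap. Its levels were 8.88, 9.23 and 8.91 in IZ, 8.23, 8.88 and 8.48 in BZ, and 8.54, 9.15 and 8.95 in NIZ (difference 0.48, 1.39-fold). The lowest IZ array and the highest BZ array of Nqo1 differed by less than 0.01. With quantile normalization 0 genes of the list were free of overlap, so Nqo1 no longer was. Without BZ replicate 1 its difference was 0.33. Without BZ replicate 3 the count of the list was 11 of 23 and its median -0.04.

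The mu class of glutathione S-transferases, which couple glutathione to reactive compounds, was looked at after its values were seen. All 7 measured members had a higher mean in IZ, by 0.12 to 0.32 log2, and Gstm4 and Gstm5 had no overlap, beside 55.2% and 3.41% of all genes at the level floor. With quantile normalization 0 of the 7 were free of overlap. Gstm5 had levels of 8.08, 8.18 and 8.27 in IZ and 7.67, 7.97 and 8.05 in BZ (difference 0.28). Without BZ replicate 1 the differences of Gstm5 and Gstm4 were 0.17 and 0.07, and the median of the family was 0.12 in place of 0.23, with 6 of the 7 higher. Probes of such near copies may read more than 1 of them. Ephx1, the microsomal epoxide hydrolase gene, had 8.56, 8.89 and 8.57 in IZ against 8.05, 8.54 and 8.53 in BZ (difference 0.30, and 0.14 without BZ replicate 1 or 0.19 without IZ replicate 2). The promoter windows of Nqo1 and Ephx1 held 0 matches to the antioxidant response element TGACNNNGC, and that of Gstm5 held 1. This element is found in 14.3% of the windows of genes at the level floor, 13.5% for the higher members and 15.4% for the lower members.

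Hypoxia-inducible genes gave 3 members, all lower in IZ. Of 15 listed genes at the level floor, Adm, Egln3 and Hif3a had no overlap and were lower, and none was higher without overlap, beside 1.70% and 3.41% of all genes. The count rested on the scaling: 1, Egln3, was lower without overlap with median centring and 2 were with quantile normalization. Egln3, a prolyl hydroxylase that marks hypoxia-inducible factors for decay, had log2 levels of 8.59, 8.76 and 8.68 in IZ, 9.30, 8.90 and 9.34 in BZ, and 8.66, 8.48 and 8.76 in NIZ. BZ lay above all 6 other arrays, and the difference was -0.50, a BZ level 1.42-fold that of IZ. With single arrays left out or quantile normalization it ran from -0.64 to -0.42.

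Adm, the adrenomedullin gene, differed from Egln3 in the place of NIZ. Its levels were 6.98, 7.28 and 7.34 in IZ, 8.33, 7.88 and 7.36 in BZ, and 8.73, 8.05 and 7.72 in NIZ. IZ lay below all 6 other arrays, by a difference of -0.66 against BZ, although IZ replicate 3 and BZ replicate 3 were 0.02 apart. With median centring these arrays changed order, so Adm was no longer free of overlap. Without BZ replicate 1 the difference was -0.42. Hif3a, an inhibitory member of the factor family, lay at the level floor with levels between 5.92 and 5.95 in IZ and from 5.98 to 6.25 in BZ (difference -0.13, and -0.04 without BZ replicate 2). The whole list of 17 measured genes had 6 higher and 11 lower in IZ, with a median of -0.07. Bnip3, a mitochondrial cell death and mitophagy gene of the same list, ran the other way (0.24), and Vegfa differed by 0.01.

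The promoter windows of Adm and Egln3 are shown because both hold the core of the hypoxia response element, searched as ACGTG and GCGTG on both strands and set in capitals. The core is frequent: 43.8% of all 32851 windows hold it, as do 61.9% of the windows of genes at the level floor, 60.6% of those of the lower members and 60.0% of those of the higher members.
Adm promoter, chr7:110627407-110627706, plus strand: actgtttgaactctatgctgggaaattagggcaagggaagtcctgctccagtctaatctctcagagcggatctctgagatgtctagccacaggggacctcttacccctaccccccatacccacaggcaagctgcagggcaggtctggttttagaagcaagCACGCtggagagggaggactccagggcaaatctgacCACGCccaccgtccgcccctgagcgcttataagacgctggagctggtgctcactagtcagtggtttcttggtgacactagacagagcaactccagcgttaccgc
Egln3 promoter, chr12:54203825-54204124, minus strand: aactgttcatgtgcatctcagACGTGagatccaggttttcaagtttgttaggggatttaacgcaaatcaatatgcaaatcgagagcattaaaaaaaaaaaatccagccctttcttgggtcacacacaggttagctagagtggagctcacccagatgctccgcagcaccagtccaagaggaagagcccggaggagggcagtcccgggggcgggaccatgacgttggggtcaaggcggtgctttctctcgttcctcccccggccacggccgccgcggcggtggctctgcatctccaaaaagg

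Glycolysis and glucose uptake gave 1 member. Pfkl, the liver-type phosphofructokinase gene, had levels of 8.02, 8.09 and 8.09 in IZ and 8.20, 8.15 and 8.22 in BZ (difference -0.12), and BZ was above the NIZ arrays too (7.86, 8.09 and 8.06). Of the 19 measured genes of this list, 6 were higher and 13 lower in IZ. Pfkfb3, which makes the allosteric activator of phosphofructokinase, had the most negative difference of the list at -0.33 with overlap.

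Hspa1a, the inducible heat shock protein gene, had the most negative difference of all members. Its levels were 6.47, 6.49 and 6.34 in IZ, 7.59, 7.35 and 6.52 in BZ, and 7.95, 6.84 and 6.64 in NIZ. The IZ arrays lay close together, and BZ replicate 3 was 0.03 above the nearest of them. With median centring 0 genes of the chaperone list were lower without overlap, so Hspa1a no longer was. Probes may also read its near copy Hspa1b. The difference was -0.72 (BZ 1.64-fold IZ), and it was -0.50 without BZ replicate 1 and -1.03 without BZ replicate 3. Hspb8, a small heat shock protein gene of muscle, went the other way, with 10.94, 10.93 and 10.94 in IZ and 10.78, 10.84 and 10.66 in BZ (difference 0.18). Of all 23 measured chaperone genes, Hspa1a and Hspb8 included, 12 had a higher mean in IZ.

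The window of Hspa1a is shown with its match to the heat shock element unit GAANNTTC in capitals. The unit was searched on both strands, which read the same here, and 7.86% of all windows hold it. The share was 5.5% for genes at the level floor, 6.53% for the higher members and 6.86% for the lower members.
Hspa1a promoter, chr17:34972107-34972406, minus strand: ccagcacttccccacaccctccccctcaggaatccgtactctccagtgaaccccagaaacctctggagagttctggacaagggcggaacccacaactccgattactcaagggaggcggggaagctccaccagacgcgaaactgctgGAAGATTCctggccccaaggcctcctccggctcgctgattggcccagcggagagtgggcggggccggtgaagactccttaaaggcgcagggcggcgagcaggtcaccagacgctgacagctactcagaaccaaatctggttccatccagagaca

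Some of the lower members with the largest differences encode signalling proteins, taken here 1 by 1 and not as a list. Irs2, the insulin receptor substrate through which insulin and its growth factor signal, had levels of 8.22, 8.19 and 8.19 in IZ and 8.52, 8.76 and 8.35 in BZ (difference -0.35). Spry4, an inhibitor of receptor tyrosine kinase signalling, had 7.29, 7.46 and 7.23 in IZ, 8.00, 7.66 and 7.57 in BZ and 8.67, 7.56 and 7.12 in NIZ (IZ minus BZ -0.42). The IZ arrays of Irs2 lay within 0.03 log2 of each other, whereas its NIZ arrays ran from 8.08 to 8.73. Ror1, a receptor for Wnt5a, differed by -0.30 (-0.17 without BZ replicate 1) and Akap12, a scaffold of protein kinase A, by -0.29. The Akap12 difference rested on BZ replicate 1 (8.00, against 7.31 on the other BZ arrays) and was -0.06 without it.

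Genes of the SPRY domain and SOCS box family, adaptors that bring target proteins to ubiquitin ligases, were grouped after their values were seen. All 4 measured members were lower in IZ, and Spsb1, Spsb3 and Spsb4 had no overlap, beside 1.70% of all genes at the level floor. With median centring 2 of the 4 had none, and Spsb1 was not among them. Spsb1 had levels of 6.61, 6.76 and 6.90 in IZ and 7.12, 7.17 and 6.93 in BZ (difference -0.32).

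Both of the iron-handling genes among the largest differences are secreted products. Cp encodes ceruloplasmin, the copper-bearing ferroxidase of plasma, and had levels of 8.90, 8.86 and 9.04 in IZ and 8.51, 8.80 and 8.38 in BZ (difference 0.37). IZ lay above all 6 other arrays for Cp, since NIZ ran from 8.76 to 8.83. Hamp encodes hepcidin, which blocks iron export, and had 6.68, 6.64 and 6.36 in IZ and 6.76, 7.19 and 6.79 in BZ (difference -0.35, and -0.21 without BZ replicate 2).

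Vascular genes gave members in both directions. Lower in IZ without overlap were Ptgis, the prostacyclin synthase gene (difference -0.27), and Procr, the endothelial protein C receptor gene. Procr differed by -0.09, and by -0.05 without BZ replicate 1. The genes that follow were higher in IZ. Tek, the angiopoietin receptor of endothelium, had 9.45, 9.51 and 9.31 in IZ and 9.06, 9.28 and 9.23 in BZ (difference 0.23), and Emcn, the endothelial sialomucin gene, differed by 0.11 (0.07 without BZ replicate 3 and 0.05 with quantile normalization). The transcription factor gene Meox2 had 6.60, 6.62 and 6.59 in IZ and 5.96, 6.03 and 6.49 in BZ (difference 0.45), with IZ within 0.03 log2 and BZ replicate 3 near to it. Myct1 had 7.72, 7.76 and 7.42 in IZ against 6.87, 7.31 and 7.39 in BZ (difference 0.44, and 0.28 without BZ replicate 1). Of all endothelial genes, 19 of 33 had a higher mean in IZ, with a median difference of 0.01. The count was 11 of 33 without BZ replicate 3 (median -0.09) and 25 of 33 without BZ replicate 2 (median 0.105). The defining markers Pecam1, Cdh5 and Kdr differed by 0.10, 0.11 and 0.07, each with overlap. With another scaling or a single array left out, their lowest differences were -0.06, -0.01 and -0.09.

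**Figure D4:**
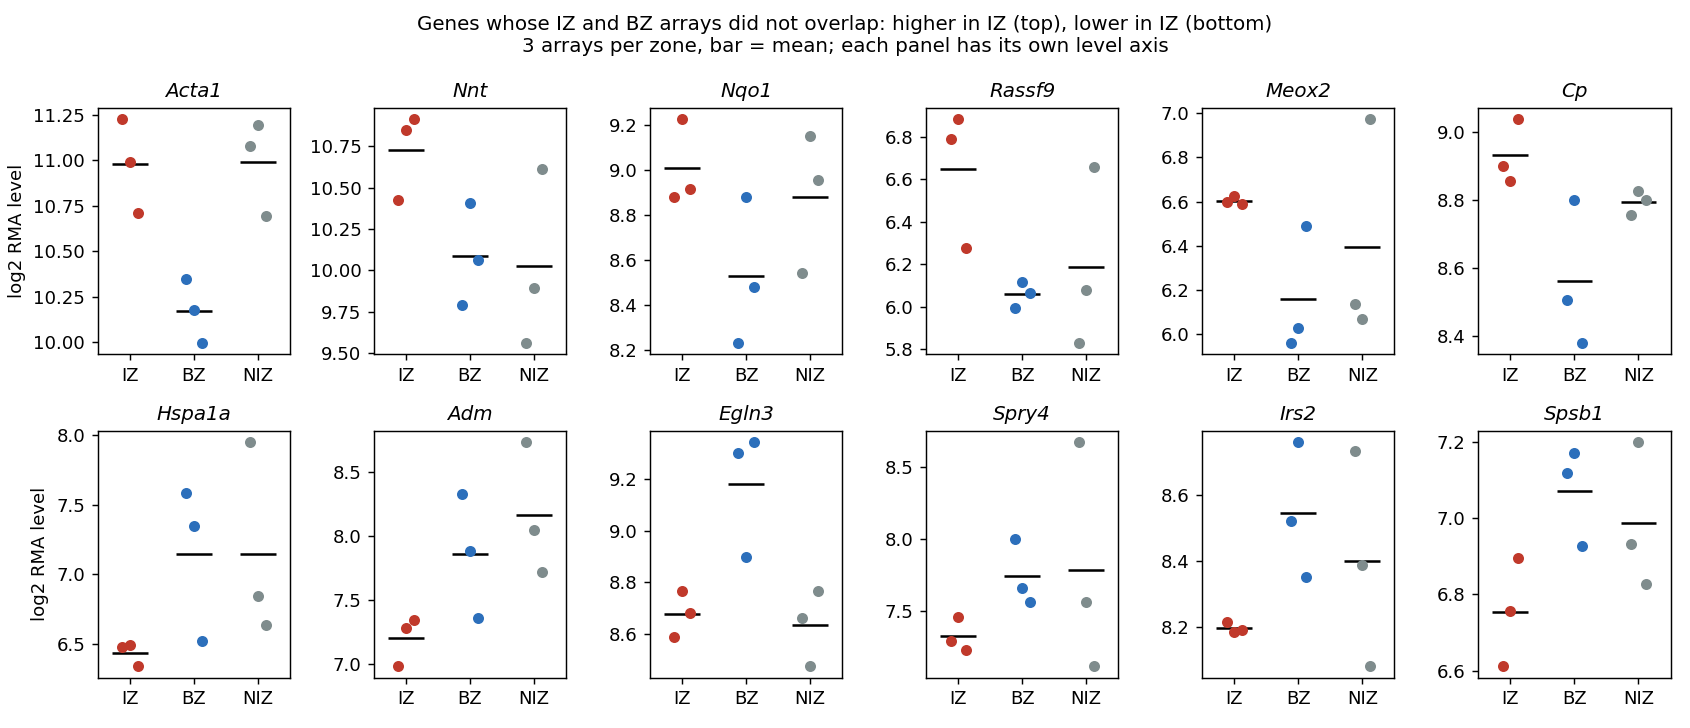
Log2 RMA levels of 6 members higher in IZ (top) and 6 lower in IZ (bottom) on the 3 arrays each of IZ (red), BZ (blue) and NIZ (grey), with the mean as a bar and a separate level axis for each gene. Acta1 shows a gap of 0.37 between the nearest IZ and BZ arrays, and Egln3 is high in BZ alone. Adm and Hspa1a are low in IZ alone as deposited, by gaps of 0.02 and 0.03 to the nearest BZ array, and overlap with median centring.

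Other members with large differences had less in common. The uncharacterised gene 2210407C18Rik had the largest of the higher members, with levels of 8.44, 9.02 and 8.91 in IZ, 8.14, 8.24 and 7.09 in BZ and 7.35, 7.87 and 8.34 in NIZ (IZ minus BZ 0.96, 1.95-fold). IZ was above all 6 other arrays, and the difference was 0.60 without BZ replicate 3. Rassf9, of the Ras-association family, had 6.79, 6.88 and 6.28 in IZ against 5.99, 6.12 and 6.06 in BZ (difference 0.59). Ints4, a subunit of the Integrator complex, differed by 0.32 and Stmn2, a regulator of microtubules, by 0.30. Bc1, a short RNA made by RNA polymerase III and known from neurons, had 9.65, 9.51 and 9.63 in IZ and 9.22, 9.33 and 9.25 in BZ (difference 0.33), and its IZ and BZ arrays each lay close together.

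Single members came from other lists. Trdn, the triadin gene of the calcium release unit, was higher in IZ by 0.15, Canx, the calnexin gene of the endoplasmic reticulum, by 0.12, Clock, a core gene of the circadian clock, by 0.11, and Rgs4, a brake on G protein signalling, by 0.06. Lower by 0.15 was H2-DMb1, which loads peptides onto MHC class II. Phlda3, a p53 target that restrains Akt, differed by -0.10, with 6.74, 6.77 and 6.67 in IZ against 6.80, 6.81 and 6.87 in BZ, and Smtn, the smoothelin gene of contractile smooth muscle, differed by -0.08. Without IZ replicate 3 the differences were 0.07 for Trdn, 0.06 for Clock and -0.09 for H2-DMb1, without BZ replicate 3 that of Smtn was -0.04, and with quantile normalization those of Canx and Clock were 0.07 and 0.06.

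The lists of neutrophils, macrophages, extracellular matrix and immediate early genes held no member. Neutrophil genes spread over several log2 units within BZ: S100a8, a calcium-binding protein abundant in neutrophils, had 9.38, 9.33 and 10.56 in IZ and 11.26, 9.88 and 6.91 in BZ. Their list had 11 of 22 higher in IZ and a median of -0.01, which was 0.67 without BZ replicate 1 and -0.63 without BZ replicate 3. The macrophage markers Adgre1, Csf1r, Lyz2 and Cd68 differed by 0.30, -0.00, 0.12 and 0.17 with overlap. Il1b, the interleukin-1 beta gene, had 10.08, 9.98 and 10.08 in IZ and 11.06, 8.80 and 6.81 in BZ, so the IZ arrays lay inside a wide BZ range.

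Immediate early genes were lower in IZ for 27 of 33 (median -0.09) and extracellular matrix genes for 36 of 46 (median -0.06). Neither direction held without BZ replicate 1, where 20 of 33 and 29 of 46 were higher in IZ (medians 0.07 and 0.11), and the matrix count was also 29 of 46 without IZ replicate 3 (median 0.07). The atrial genes stood out on single arrays, as for Sln, a regulator of the calcium pump, which had 5.25, 6.09 and 5.47 in IZ, 5.21, 8.78 and 5.59 in BZ and 5.31, 10.91 and 5.30 in NIZ. Of the apoptosis genes the study names, Bclaf1 had 7.52, 7.47 and 7.38 in IZ and 7.55, 7.33 and 7.05 in BZ (difference 0.15) and Bcl2 differed by -0.06, both with overlap, while p53, Bax, caspase-3 and lncCIRBIL were not analysed here. The p53 targets Cdkn1a and Mdm2 differed by -0.09 and 0.07 with overlap.

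RNA classes differed in their share of members. Of 9489 protein-coding genes at the level floor, 253 were higher without overlap (2.67%) and 149 lower (1.57%). Of 1678 pseudogenes, 126 were higher (7.51%) and 10 lower (0.596%), and 73.3% had a higher mean in IZ. They included Gm6665 (9.62, 9.74 and 10.10 in IZ, 8.93, 9.43 and 9.51 in BZ) and Gm6686 (8.66, 8.92 and 9.39 in IZ, 8.37, 8.39 and 8.61 in BZ), each with a difference of 0.53 (0.35 for Gm6665 without BZ replicate 1, 0.33 for Gm6686 without IZ replicate 3). Small nuclear RNA genes of the splicing machinery gave 17 higher and 2 lower of 276, and 90.9% had a higher mean in IZ (median 0.13). Without BZ replicate 3 that median was 0.03, and the same array was the lowest of BZ for 214 of the 416 higher members. Among the lower small nuclear RNAs was Rnu11, the U11 RNA of the minor spliceosome, with 9.65, 9.57 and 9.46 in IZ and 9.75, 9.68 and 9.68 in BZ (difference -0.14, and -0.09 without IZ replicate 3).

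Of 54 ribosomal RNA genes, 29 were lower without overlap (53.7%), but this count rested on the scaling and on a few signals. With median centring 0 of the 54 were lower and 4 higher without overlap, and with quantile normalization 9 were lower. The 54 genes have 20 distinct sets of values and the 29 have 4, since many copies of the 5S ribosomal RNA gene have identical values on every array. Pseudogenes and numbered small nuclear RNA genes likewise resemble their parent genes, and which copy gave the signal cannot be told apart.

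**Figure D5:**
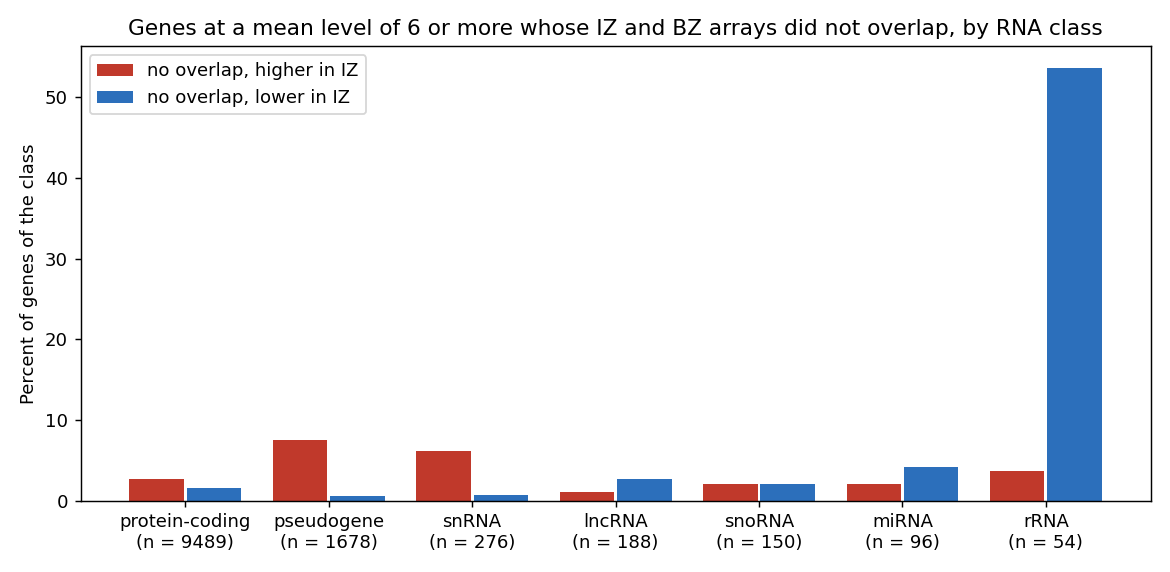
Percent of the genes of each RNA class, at a mean level of 6 or more, whose 3 IZ and 3 BZ arrays did not overlap, with genes higher in IZ in red and lower in IZ in blue. Pseudogenes and snRNA lie mostly on the higher side (7.51% and 6.16%), and rRNA on the lower side as deposited (53.7%, from 4 distinct sets of values), where median centring left 0 of 54.

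In the values as deposited, the protein-coding members of the 2 directions differed in gene span, which the rule did not use. With median centring the protein-coding genes without overlap were 671 higher and 63 lower, and their spans were not computed. The median gene span in the RefSeq table was 42.8 kb for the 253 higher genes (quartiles 22.0 and 92.3) and 11.7 kb for the 149 lower ones (quartiles 4.51 and 28.5), beside 23.8 kb for all 9489. Long genes such as the dystrophin gene Dmd (difference 0.21) and the chromatin remodeller Atrx (0.15) were among the higher members. Promoter GC content was close, with medians of 60.0%, 62.3% and 61.3% in the same order, from 80.2% or more of the genes in each group. The median level, which the rule bounds from below, was 7.74 for the higher members, 6.81 for the lower and 7.37 for all.

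Families of trafficking genes were examined after their values were seen. Of 33 Vps genes at the level floor, which serve sorting to the endosome and lysosome, 6 were higher without overlap, beside 3.41% of all genes at that level, among them Vps13a, Vps13b and Vps13c, which carry lipids between membranes. Vps13c had 7.53, 7.66 and 7.68 in IZ and 7.27, 7.48 and 7.48 in BZ (difference 0.21). Of the 10 exocyst subunits, Exoc3, Exoc4 and Exoc6 were higher without overlap, and 0 were with quantile normalization. No gene of these families was lower without overlap at the level floor.

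The NIZ arrays placed the members in different ways, with the BZ and IZ arrays shared by each placing. Of the 416 higher genes, the NIZ mean lay above the IZ mean for 78, between the zones for 194 and below the BZ mean for 144 (18.8%, 46.6% and 34.6%). Over all genes at the level floor with a higher mean in IZ, these shares were 37.4%, 27.6% and 35.0%. Of the 207 lower genes, it lay above the BZ mean for 87, between for 80 and below the IZ mean for 40. These shares were 42.0%, 38.6% and 19.3%, beside 34.6%, 27.4% and 38.01% of all genes with a lower mean in IZ. The members were chosen for no overlap, which favours wider differences between the IZ and BZ means. A wider difference leaves more room for the NIZ mean to lie between them. The larger shares between the zones (46.6% and 38.6%) can thus come from the rule, and no trait of the members is read from them. BZ lay below all 6 other arrays for 136 genes, as for Acta1 and COX1, and above them for 51, as for Egln3, Mir762 and Sulf2, an extracellular sulfatase of heparan sulfate (8.81, 8.81 and 8.66 in IZ, 8.90, 9.06 and 9.03 in BZ). IZ lay above all 6 others for 64 genes, as for Cp and Rrad, a brake on cardiac calcium channels (10.74, 10.70 and 11.12 in IZ, 10.61, 10.60 and 10.49 in BZ), and below them for 97, as for Adm, Hspa1a and Ptgis, the prostacyclin synthase gene (7.22, 7.21 and 7.18 in IZ, 7.33, 7.53 and 7.56 in BZ). Without IZ replicate 3 the difference of Rrad was 0.16, in place of 0.29. With median centring the IZ and BZ arrays of Adm and Hspa1a overlapped. Sulf2, Rrad and Ptgis were chosen after their values were seen. A gene with BZ or IZ above or below all 6 other arrays is a member by the rule. The counts of 136, 51, 64 and 97 are therefore also those among all 12189 genes at the level floor, and they carry no test.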

How the data were processed

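Each of the 9 samples (3 per zone) was hybridised to a GeneChip Mouse Transcriptome Assay 1.0 array, in 1 colour. The deposited log2 values are those of the authors, made by RMA (background correction, a common distribution for the arrays and a summary per transcript cluster); the submitters' processing notes name Expression Console 1.0 together with Transcriptome Analysis Console 3.0. The build is not given in the sources used here. The platform annotation gave 1 symbol to 30414 of 65534 clusters, several to 2146 and none to 32974. A gene was represented by its brightest cluster (mean of 9 arrays). Clusters with several symbols named no gene. limma 3.58.1 in R 4.3.3 fitted all 9 arrays on the log2 scale with Benjamini-Hochberg adjustment at 0.05 and no block, and was tested on simulated data. P-values measure the spread between these arrays only. Arrays have no read depth, and 3 per zone limit the precision. The members, the 38 gene lists and the tests were chosen with earlier results of these data known. Named genes were the 15 members with the largest differences each way (protein-coding or named non-coding), up to 5 members per list (or 2 genes of high level in lists without any), the 3 genes either side of the level floor, cell type markers, genes the study names and the p53 targets Cdkn1a and Mdm2. Other named genes were chosen after their values were seen. Promoter and microRNA sequences are from RefSeq (GRCm38.p6).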

Additional observations from a re-analysis of the deposited data

How the results depend on the processing

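The count of 0 clusters called by limma between IZ and BZ stayed at 0 under each alternative fit, including each array or replicate number left out, with smallest adjusted p-values from 0.257 to 1, while the methods' test without adjustment over clusters called 447. The genes higher in IZ without overlap, 416 in the main setting, numbered 942 with median centring, 1243 with a replicate block (the mean of each replicate number subtracted), 7 with a difference of at least 0.5 log2, and from 723 to 1303 without 1 IZ or BZ array. The genes lower in IZ, 207 in the main setting, numbered 82 with median centring, 661 with the replicate block, 3 with the 0.5 log2 limit, 100 at a mean level of 7 or more, 753 with no level floor, and from 368 to 945 without 1 array. Leaving out an array eases the rule, so these counts must grow. Of the 416 and 207 members, 376 and 64 kept their place with median centring, 220 and 117 with quantile normalization, and 300 and 167 with the replicate block. IZ and BZ arrays of the same number had correlations of their deviations of 0.36, 0.06 and 0.20, and each IZ array correlated best with its own number. The margins were small for numbers 2 and 3: IZ replicate 2 had 0.00 with BZ replicate 3, and IZ replicate 3 had 0.17 with BZ replicate 2. The numbers thus hint at a pairing, mainly through number 1, but do not set it. With the replicate number as a fixed block, limma called 0 clusters (smallest adjusted p = 0.841) and had 3463 at an unadjusted p under 0.05, against 2517 without it. The sign of the difference changed in at least 1 alternative for 60 of all 132 named genes; the 44 that are members were chosen for no overlap, which fixes their sign when an array is left out. Counting each distinct set of values once, added after the data were seen, left 414 higher and 182 lower genes.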

Other observations

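Other gene lists held no or few members and showed small shifts. Interferon-induced genes had higher means in IZ for 27 of 38 (median log2 difference 0.07), but for 7 of 38 without BZ replicate 3 (median -0.09), 12 of 38 without IZ replicate 1 (median -0.07), 19 of 38 without IZ replicate 2 (median -0.00), 33 of 38 without IZ replicate 3 (median 0.28) and 33 of 38 without BZ replicate 1 (median 0.22). Genes of pericytes and smooth muscle were higher for 15 of 20 (median 0.04). Genes of mesothelium and epicardium had lower means in IZ for 14 of 16 (median -0.09), but higher means for 13 of 16 without BZ replicate 3 (median 0.03) and 8 of 16 without IZ replicate 1 (median 0.00). Lower means were found for 11 of 13 genes of mast cells and platelets (median -0.07) and 11 of 15 cytosolic ribosomal proteins (median -0.01), of which 8 of 15 were higher with median centring (median 0.02). Cytokines and chemokines were higher for 21 of 40, fibroblast genes for 11 of 27, complement genes for 7 of 16, ion channel genes for 11 of 23 and genes of DNA replication and mitosis for 11 of 34. Of the 45 lists and families, 31 changed the sign of their median in at least 1 alternative.

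Transcript clusters without a gene symbol were also compared. Of 3441 such clusters at a mean level of 6 or more, 231 were higher in IZ without overlap (6.71%) and 78 were lower (2.27%). The largest positive difference was in the cluster TC0400000800.mm.1, with log2 levels of 9.66, 9.96 and 9.67 in IZ, 8.24, 8.48 and 8.43 in BZ and 8.68, 8.63 and 9.82 in NIZ, a difference of 1.38 for IZ against BZ. The next was TC0M00000024.mm.1, whose identifier begins as those of the mitochondrial genes do, with 8.99, 9.10 and 9.72 in IZ, 8.38, 8.21 and 7.76 in BZ and 8.66, 8.79 and 9.04 in NIZ. The most negative difference was in TC0300001996.mm.1, with 9.76, 9.83 and 9.83 in IZ, 10.18, 10.37 and 10.81 in BZ and 10.26, 9.75 and 9.88 in NIZ. The annotation used here pairs none of these with a gene, and they were singled out after their values were seen.

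Below the level floor the balance of the directions turned in the values as deposited. Of 17898 genes with a mean level under 6, 208 were higher in IZ without overlap and 546 were lower. At the level floor the shares were 3.41% and 1.70%, and over all 30087 genes they were 2.07% and 2.5%. The scaling bears on this balance: 41.0% of all genes had a higher mean in IZ as deposited, 61.4% with median centring and 49.8% with quantile normalization.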
